A study of Mus musculus with 28 samples.

Results

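The RAS, RAF, MEK and ERK genes described here were taken from the deposited gene counts of mouse colon organoids. They were 7 of the 13519 genes counted: the RAS GTPase genes *Hras* and *Nras*, the RAF kinase genes *Braf* and *Araf*, the MEK kinase genes *Map2k1* (MEK1) and *Map2k2* (MEK2), and the ERK kinase gene *Mapk3* (ERK1). The members were listed by symbol as parts of the core MAPK cascade, and all 7 were found in the count table by their Ensembl identifiers. None was removed by a filter on low counts. The organoids were colon epithelium of C57BL/6N mice. All of them carried VillinCreERT2, a Cre recombinase that is restricted to the intestinal epithelium by the *Villin* promoter and is switched on by 4-hydroxytamoxifen (4-HT), together with 2 floxed copies of *Apc*. Besides these alleles, AC organoids carried no other, PAC organoids carried 1 Trp53LSL-R172H copy, BAC organoids 1 BraffloxV600E copy, and BPAC organoids both. AC organoids came from 1 donor mouse and each of the other genotypes from 2. Every donor gave 2 cultures, called duplicates 1 and 2, and each of the 14 cultures was exposed either to ethanol (EtOH) or to 3.5 µM 4-HT for 24 hours, and RNA was isolated after 3 more days. The label of the 4-HT-treated BAC sample of donor 2 that stands here as duplicate 1 carries no duplicate number, and it was placed there because the other such sample is numbered 2. Each treatment thus had 2 AC samples and 4 samples of every other genotype, 28 in all. The duplicates of a donor are cultures of the same animal, so the p values below measure the spread between samples more than that between mice. With 4-HT, *Apc* was recombined in every genotype, so no comparison here concerns organoids with an intact *Apc* after 4-HT. Age was not given in the sources used here.

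The cascade passes signals from growth factor receptors to the nucleus. Receptors load RAS with GTP, RAS brings RAF kinases to the membrane, RAF phosphorylates MEK, and MEK phosphorylates ERK, which acts on transcription factors and on further kinases. In the intestine, this pathway drives proliferation in the crypts downstream of the EGF receptor. The V600E change locks the BRAF kinase in an active state that does not wait for RAS. The floxed allele keeps a wild-type copy of the last *Braf* exons in front of the mutant exon until Cre removes it, so that before recombination both alleles encode wild-type BRAF. The counts are sums over the gene. They do not tell the alleles apart, and they measure transcripts, not phosphorylation or kinase activity.

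Library totals ranged from 20577276 to 40068718 reads on genes. They were highest, at 37438687 or more, in duplicate 1 of BAC and BPAC with 4-HT, and at most 30306835 in all other samples. The 4-HT changes of the members are therefore also given within each duplicate. The members were well covered, with 397 to 13394 reads per gene and sample. At the lowest of these, counting error alone came to 5.02% of the value. All 13 colon epithelium markers looked for were in the table. Of the markers of other cell types, 6 of 7 of fibroblasts, 3 of 5 of immune cells and 2 of 3 of endothelium were not among the genes listed, and the few listed (*Pdgfrb*, *Cd3e*, *Cd68*, *Pecam1*) summed to at most 13.7, 6.13 and 2.71 CPM (the reads of a gene relative to the library total, scaled by TMM) for the 3 cell types in any sample. The 4-HT-treated PAC samples of duplicate 1 stood apart. The libraries of both donors held *Xist* and Y-linked reads, whereas no other sample had more than 100 reads of both, and they differed from each other by less than any other pair of replicates, with a chi-square of 2.38 per gene against 8.53 for the next closest pair and 1 for sampling noise. The 4-HT changes in PAC are given with and without the duplicate 1 cultures for this reason.

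Some members are close relatives in sequence. Over the whole aligned coding sequence, *Braf* and *Araf* shared 59.1% of bases, *Hras* and *Nras* 75.3%, and *Map2k1* and *Map2k2* 77.1%. The longest runs that a pair had in common were 17, 23 and 56 bases, in this order. At most 0.792% of the 50-base words of a member's transcript also occurred in another gene, so few reads could have been assigned to the wrong relative. *Braf* shared 146 exonic bases with *Ndufb2* and *Araf* shared 9 with *Syn1*, both on the opposite strand, and whether the counting used strand is not given in the sources used here.

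In GRCm38, *Braf* (ENSMUSG00000002413) spans chr6:39603237-39725463 on the minus strand and *Araf* (ENSMUSG00000001127) chrX:20797814-20860519 on the plus strand. *Hras* (ENSMUSG00000025499) lies at chr7:141189105-141194005 on the minus strand and *Nras* (ENSMUSG00000027852) at chr3:103058285-103067914 on the plus strand. *Map2k1* (ENSMUSG00000004936) lies at chr9:64185770-64253631 on the minus strand and *Map2k2* (ENSMUSG00000035027) at chr10:81105915-81133975 on the plus strand. *Mapk3* (ENSMUSG00000063065) spans chr7:126759601-126765819 on the plus strand. The annotation lists all 7 as protein coding.

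The 250 bases before the start of *Map2k1* and *Map2k2* are shown because, of these close relatives, *Map2k1* passed the test below in every genotype and *Map2k2* in none. They were taken from RefSeq (GRCm38.p6), chr9:64253606-64253855 on the minus strand and chr10:81105665-81105914 on the plus strand, and the capitals mark GC boxes (GGGCGG or its reverse, CCGCCC). The starts are those of RefSeq. For *Map2k1*, *Araf* and *Hras* they lie inside the GENCODE spans given above, so the last bases shown for *Map2k1* belong to that span.
Map2k1: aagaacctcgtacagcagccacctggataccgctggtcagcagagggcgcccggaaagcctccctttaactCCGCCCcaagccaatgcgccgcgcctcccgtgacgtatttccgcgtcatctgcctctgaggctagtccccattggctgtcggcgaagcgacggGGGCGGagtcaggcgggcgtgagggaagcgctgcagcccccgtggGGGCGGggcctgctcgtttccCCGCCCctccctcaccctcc
Map2k2: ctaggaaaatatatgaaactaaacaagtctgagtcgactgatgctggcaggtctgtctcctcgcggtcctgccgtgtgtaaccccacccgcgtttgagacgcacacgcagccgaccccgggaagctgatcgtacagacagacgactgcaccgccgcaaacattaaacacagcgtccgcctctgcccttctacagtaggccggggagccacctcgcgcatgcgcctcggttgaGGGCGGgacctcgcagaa
*Map2k1* held 4 GC boxes and *Map2k2* 1, and 32.7% of 32851 promoters of the same length held at least 1. On both strands, neither these promoters nor those of *Braf*, *Araf*, *Hras* and *Nras* held the ETS letters CCGGAAG, the AP-1 letters TGANTCA or the TCF/LEF letters ATCAAAG, which 6.91%, 6.75% and 3.21% of all promoters held.

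Levels were compared between genes as CPM per kilobase of the longest coding transcript. *Mapk3* had the highest median over the 28 samples, 152 (106 to 250), followed by *Map2k2* with 126 (104 to 157) and *Map2k1* with 78.2 (47.2 to 135). These medians pool both treatments. With 4-HT alone, the genotype means of *Mapk3* (118 to 132) and *Map2k2* (113 to 124) were close. In BPAC with 4-HT, *Mapk3* was the lower of the pair (118 against 121). *Araf* with 43.4 (38.4 to 53.5) and *Hras* with 41.6 (31.2 to 48.6) did not differ beyond their spread, and the ranges of *Mapk3*, *Map2k2* and *Map2k1* also overlapped with those of their neighbours in this order. *Nras* came next with 17.8 (15.2 to 20.1). *Braf* was the lowest at 2.35 (2.08 to 2.86), and it also had the fewest reads before any correction for length, with a median of 22.9 CPM against 79.7 for *Nras*. The level of *Braf* per kilobase rests on a transcript of 9728 bases, of which 2412 are coding. With the union of all exons as length, *Mapk3* (121) and *Braf* (1.65) stayed the highest and the lowest, whereas *Map2k1* (56.2) and *Map2k2* (53.3) came out in the opposite order, and so did *Hras* (31.5) and *Araf* (15.6), which then lay close to *Nras* (15). Between samples, *Map2k1* varied the most, 2.86-fold from the lowest to the highest sample, and *Mapk3* 2.36-fold. The other members stayed within 1.32-fold (*Nras*) to 1.56-fold (*Hras*).

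**Figure D1:**
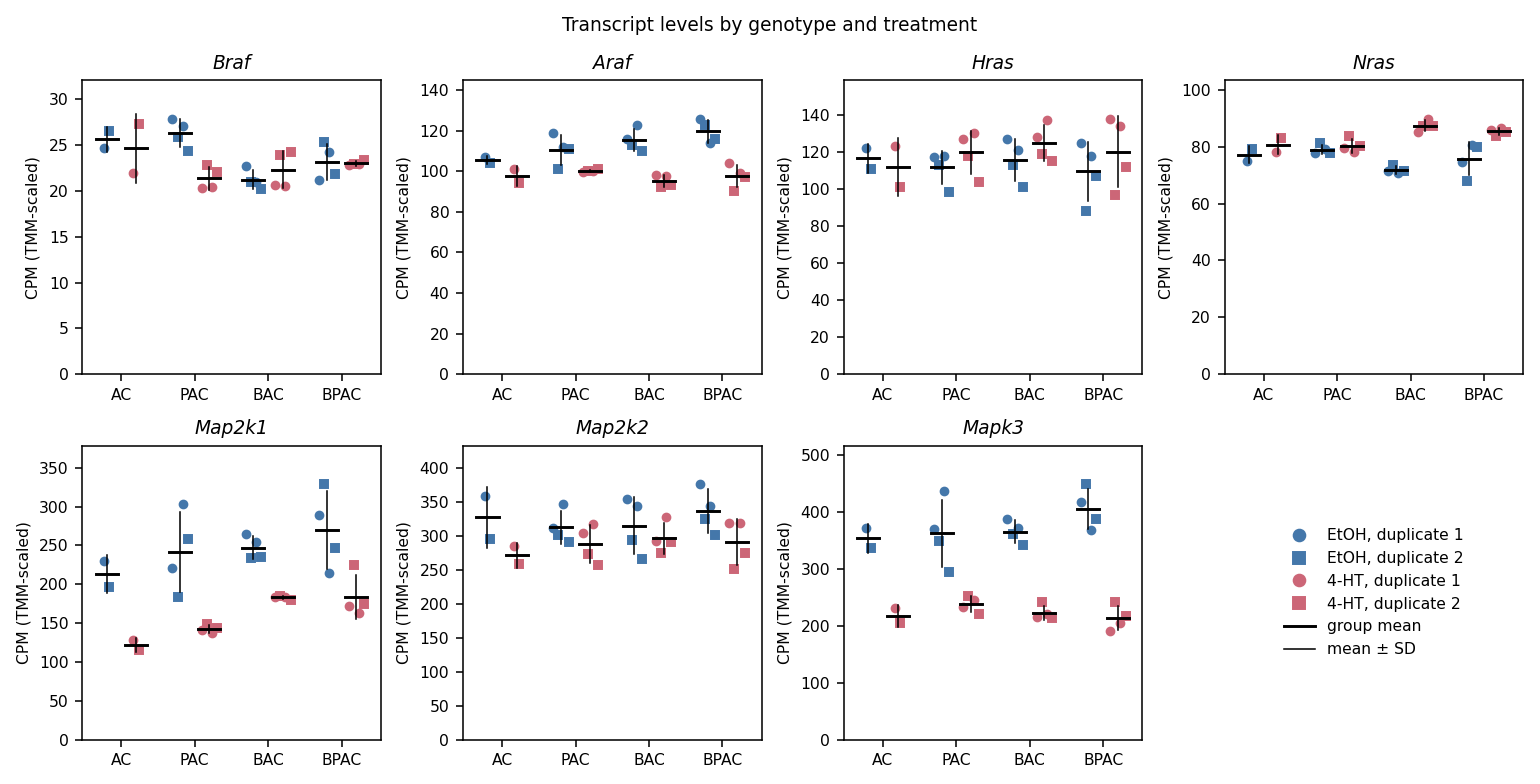
CPM scaled by TMM (y axis) of each member in each of the 28 samples by genotype (x axis), blue for EtOH and red for 4-HT, circles for duplicate 1 and squares for duplicate 2, with thick bars for group means and thin bars for 1 SD on each side. *Mapk3* and *Map2k1* lie lower with 4-HT in every genotype, with *Mapk3* at 295 to 449 CPM in EtOH-treated samples and 191 to 252 in 4-HT-treated samples.

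To see how the cascade changed with 4-HT, 4-HT-treated samples were compared with EtOH-treated samples of the same genotype. No culture without Cre or without floxed *Apc* was given 4-HT. Effects of 4-HT itself, of Cre and of *Apc* loss therefore cannot be told apart here. *Mapk3* and *Map2k1* fell in all 4 genotypes, *Mapk3* to between 0.525 and 0.655 of its level with EtOH and *Map2k1* to between 0.571 and 0.741. *Araf* fell and *Nras* rose in BAC organoids, to 0.827 and 1.22 of their level, and *Araf* also fell in BPAC organoids. *Braf* passed the threshold, as a fall, in PAC organoids alone, and *Hras* and *Map2k2* did so in no genotype. The threshold was an adjusted p of 0.01. Where samples are said below not to overlap, the share of all genes that did the same was not counted. In AC, 0 members rose and 2 fell, where 3.00% of all genes rose and 4.25% fell. In PAC, 0 rose and 3 fell (all genes, 11.2% and 12.2%), in BAC 1 rose and 3 fell (20.3% and 21.5%), and in BPAC 0 rose and 3 fell (22.0% and 23.0%). With culture as a replicate block the same members were called, where 16.4% (AC), 34.9% (PAC), 51.9% (BAC) and 54.4% (BPAC) of all genes passed in either direction. The median log2 change of the members was -0.11 (AC), -0.14 (PAC), -0.09 (BAC) and -0.21 (BPAC), beside 0.01, -0.03, -0.04 and -0.04 over all genes.

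These changes are relative to TMM scaling, which assumes that most genes do not change. Scaling by library size alone raised the log2 change of the median gene by 0.17 to 0.22 and the share of calls that rose from between 41.4% and 48.9% to between 65.3% and 83.3%. In the same comparison, the summed level of the 13 epithelial markers was lower with 4-HT, at 21400 to 28700 CPM against 32100 to 46400 CPM with EtOH, and *Pdgfrb*, the fibroblast marker listed, had 0.238 to 3.83 CPM with 4-HT against 3.38 to 13.7 with EtOH. The endothelial marker *Pecam1* had 0.216 to 0.84 CPM against 0.573 to 2.71, and the 2 immune markers together 2.14 to 6.13 against 1.31 to 5.38. The sum does not show how each of the 13 epithelial markers moved. They include the differentiation marker *Cdx2* and the stem cell marker *Lgr5*. The part of these markers in the results was not tested. In bulk samples, fewer cells of a type and less marker RNA per cell cannot be told apart.

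*Mapk3* encodes ERK1, the last kinase of the cascade. In the values that follow, samples stand in the order donor 1 duplicate 1, donor 1 duplicate 2, donor 2 duplicate 1, donor 2 duplicate 2. EtOH-treated AC samples had 372 and 336 CPM and 4-HT-treated AC samples 231 and 204 CPM. EtOH-treated PAC samples had 370, 349, 437 and 295 CPM and 4-HT-treated PAC samples 233, 252, 245 and 221 CPM. EtOH and 4-HT did not overlap in either genotype. EtOH-treated BAC samples had 388, 362, 371 and 341 CPM against 215, 241, 221 and 214 CPM with 4-HT. EtOH-treated BPAC samples, the highest as a group, had 417, 449, 369 and 387 CPM against 191, 241, 205 and 217 CPM with 4-HT. The lowest sample with EtOH in any genotype, 295 CPM, was above the highest sample with 4-HT, 252 CPM. The log2 change was -0.70 (SE 0.14, adjusted p = 0.00152) in AC, -0.61 (SE 0.10, adjusted p = 5.9e-05) in PAC, -0.72 (SE 0.10, adjusted p = 1.46e-06) in BAC and -0.93 (SE 0.10, adjusted p = 2.62e-08) in BPAC. All 14 cultures went down, by -0.42 to -1.13 with TMM and by -0.21 to -0.90 with library size alone. Within duplicates 1 and 2, the changes were -0.70 and -0.73 in AC, -0.75 and -0.45 in PAC, -0.78 and -0.63 in BAC, and -1.0 and -0.87 in BPAC. In BAC and BPAC the call held in all 36 alternatives, whereas in AC it was lost without the duplicate 1 culture (adjusted p = 0.0658) or the duplicate 2 culture (adjusted p = 0.0622) and with library size alone (-0.48, adjusted p = 0.0109), and in PAC it was lost without both duplicate 1 cultures (-0.45, adjusted p = 0.043).

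*Map2k1* encodes MEK1, which activates ERK. AC samples had 230 and 196 CPM with EtOH and 128 and 115 CPM with 4-HT. PAC samples had 221, 184, 303 and 258 CPM with EtOH and 141, 149, 137 and 144 CPM with 4-HT. The PAC cultures thus differed widely with EtOH and were close together with 4-HT. BAC samples had 264, 234, 254 and 235 CPM with EtOH and 184, 185, 183 and 180 CPM with 4-HT. BPAC samples had 289, 329, 214 and 246 CPM with EtOH, and with 4-HT 225 CPM in donor 1 duplicate 2 and 163 to 174 CPM in the others, so that the groups overlapped. Every culture went down. The log2 change was -0.81 (SE 0.18, adjusted p = 0.00388) in AC, -0.76 (SE 0.13, adjusted p = 0.000103) in PAC, -0.43 (SE 0.13, adjusted p = 0.0064) in BAC and -0.56 (SE 0.13, adjusted p = 0.000717) in BPAC. Within duplicates 1 and 2 it was -0.86 and -0.77, -0.91 and -0.59, -0.48 and -0.36, and -0.60 and -0.53 in the same order of genotypes. The direction was the same in every alternative, but library size alone ended the calls in AC (-0.59, adjusted p = 0.0174), BAC (-0.26, adjusted p = 0.0751) and BPAC (-0.34, adjusted p = 0.0241). In AC the call was lost without either culture (adjusted p = 0.131 and 0.0787), and with either BAC donor left out of the shared fit (adjusted p = 0.0109 and 0.0115). In BAC the adjusted p rose to between 0.0175 and 0.0367 without any 1 of the 4 cultures. It rose to 0.1 without donor 1 of BAC and to 0.0933 without donor 2. In PAC the change was -0.49 without donor 2 (adjusted p = 0.0568) and -0.59 without both duplicate 1 cultures (adjusted p = 0.052). In BPAC it was -0.49 without the donor 1 duplicate 1 culture (adjusted p = 0.0108) and -0.45 without donor 1 (adjusted p = 0.0197). Adding up the reads of a donor's duplicates ended the calls in BAC (-0.41, adjusted p = 0.0486) and BPAC (-0.57, adjusted p = 0.011). The PAC call held in that fit. For AC it leaves 1 sample per treatment, with a change of -0.84.

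*Map2k2*, the gene of the other MEK kinase, had 251 to 377 CPM over all samples. Its log2 changes were -0.27 (SE 0.15) in AC, -0.12 (SE 0.11) in PAC, -0.09 (SE 0.11) in BAC and -0.21 (SE 0.11) in BPAC, with adjusted p values of 0.225, 0.393, 0.506 and 0.0906. The change was negative in 13 of 14 cultures with TMM, but in 4 of 14 with library size alone, so its direction depended on the scaling. By duplicate it was -0.36 and -0.19 in AC, -0.08 and -0.16 in PAC, -0.15 and 0.01 in BAC, and -0.19 and -0.25 in BPAC, and without both PAC duplicate 1 cultures it was -0.16 in PAC (adjusted p = 0.542). With duplicate number as a covariate, the BPAC change of -0.21 passed the threshold (adjusted p = 0.00347).

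The RAS genes went up rather than down in most cultures. *Nras* had 71.6, 73.6, 70.6 and 71.4 CPM in EtOH-treated BAC samples and 85.3, 87.2, 89.9 and 87.3 CPM in 4-HT-treated ones, 2 narrow groups that did not overlap. In BPAC it had 74.5, 68.1, 80.5 and 80.0 CPM with EtOH and 86.0, 83.7, 86.6 and 85.3 CPM with 4-HT, again without overlap. In AC it had 75.0 and 79.3 CPM with EtOH and 78.3 and 83.2 CPM with 4-HT, and in PAC 77.8 to 81.2 CPM with EtOH and 78.0 to 83.8 CPM with 4-HT, so that these groups overlapped. The log2 change was 0.28 (SE 0.06, adjusted p = 0.000163) in BAC and 0.17 (SE 0.06, adjusted p = 0.0113) in BPAC, where it missed the threshold of 0.01, against 0.07 (SE 0.08) in AC and 0.02 (SE 0.06) in PAC. In duplicates 1 and 2 alone it was 0.04 and 0.07 in AC, 0.01 and 0.05 in PAC, 0.32 and 0.27 in BAC and 0.14 and 0.19 in BPAC, and without both PAC duplicate 1 cultures it was 0.05 in PAC (adjusted p = 0.783). The BAC call was lost without donor 2 (0.25, adjusted p = 0.0335). The BPAC value passed the threshold with DESeq2's size factors (adjusted p = 0.00917), with the DESeq2 test (adjusted p = 0.00123), with duplicate number as a covariate (adjusted p = 0.00425) and with library size alone (0.38, adjusted p = 9.48e-06), and library size alone also called *Nras* in PAC (0.25, adjusted p = 0.00223). *Hras* was higher with 4-HT in 13 of 14 cultures, by 0.19 at most, and its log2 changes of -0.06 (SE 0.16) in AC, 0.11 (SE 0.12) in PAC, 0.11 (SE 0.12) in BAC and 0.13 (SE 0.12) in BPAC passed in none. With culture as a replicate block the changes were alike and the errors about 0.06 in PAC, BAC and BPAC, with adjusted p values of 0.139, 0.0879 and 0.0523. In duplicates 1 and 2 they were 0 and -0.15, 0.14 and 0.07, 0.11 and 0.13, and 0.15 and 0.10 in the same order, and the PAC value without both duplicate 1 cultures was 0.07.

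Of the RAF genes, *Araf* was lower with 4-HT in all 14 cultures. Its BAC samples had 116, 113, 123 and 110 CPM with EtOH and 98.1, 92.5, 97.8 and 93.3 CPM with 4-HT. Its BPAC samples had 126, 123, 114 and 116 CPM with EtOH and 104, 90.5, 99.2 and 97.2 CPM with 4-HT. The groups did not overlap in either genotype. The log2 change was -0.27 (SE 0.06, adjusted p = 0.000578) in BAC and -0.29 (SE 0.06, adjusted p = 0.000276) in BPAC, against -0.11 (SE 0.09, adjusted p = 0.42) in AC and -0.14 (SE 0.06, adjusted p = 0.0752) in PAC. By duplicate, it was -0.10 and -0.14 in AC, -0.20 and -0.07 in PAC, -0.26 and -0.27 in BAC and -0.25 and -0.35 in BPAC, and without both PAC duplicate 1 cultures it was -0.07 in PAC (adjusted p = 0.649). With library size alone it was -0.11 in BAC and -0.08 in BPAC, past the threshold in neither (adjusted p = 0.173 and 0.328), and it turned to 0.11 in AC and 0.08 in PAC. Leaving out donor 1 or donor 2 of BAC (adjusted p = 0.0272 and 0.0314) or donor 1 of BPAC (-0.22, adjusted p = 0.0291) also ended the calls.

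*Braf*, the engineered gene, had 24.7 and 26.6 CPM in EtOH-treated and 22.0 and 27.3 CPM in 4-HT-treated AC samples. In PAC it had 27.9, 25.9, 27.1 and 24.4 CPM with EtOH and 20.3, 22.8, 20.4 and 22.1 CPM with 4-HT, which did not overlap. The log2 change was -0.06 (SE 0.12) in AC and -0.30 (SE 0.09, adjusted p = 0.00798) in PAC. The PAC call was weak. It rested on the 2 duplicate 1 cultures with changes of -0.46 and -0.41, against -0.19 and -0.14 in duplicate 2, and it was lost in 19 of 36 alternatives, with -0.17 (adjusted p = 0.44) without both duplicate 1 cultures and -0.25 (adjusted p = 0.0772) or -0.26 (adjusted p = 0.0646) without that of donor 1 or donor 2 alone. It was also lost without either duplicate 2 culture of PAC and without the BAC culture of donor 1 duplicate 2 or donor 2 duplicate 1 or either BPAC culture of donor 2 (adjusted p = 0.0101 to 0.011), and with library size alone it was -0.08. In BAC *Braf* had 22.7, 21.0, 21.0 and 20.2 CPM with EtOH and 20.6, 23.9, 20.5 and 24.2 CPM with 4-HT, and in BPAC 21.2, 25.4, 24.3 and 21.8 CPM with EtOH and 22.8, 22.9, 22.9 and 23.4 CPM with 4-HT. These groups overlapped, with log2 changes of 0.07 (SE 0.09, adjusted p = 0.505) in BAC and -0.01 (SE 0.09, adjusted p = 0.921) in BPAC, and *Braf* went up in 4 of the 8 cultures with the floxV600E allele. With library size alone it went up in all 8, by 0.05 to 0.41, with a change of 0.24 in BAC and of 0.20 in BPAC that did not pass the threshold either (adjusted p = 0.0266 and 0.0562), so its direction in BPAC depended on the scaling. Within duplicates 1 and 2 the changes were -0.18 and 0.04 in AC, -0.07 and 0.22 in BAC, and -0.01 and -0.03 in BPAC.

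**Figure D2:**
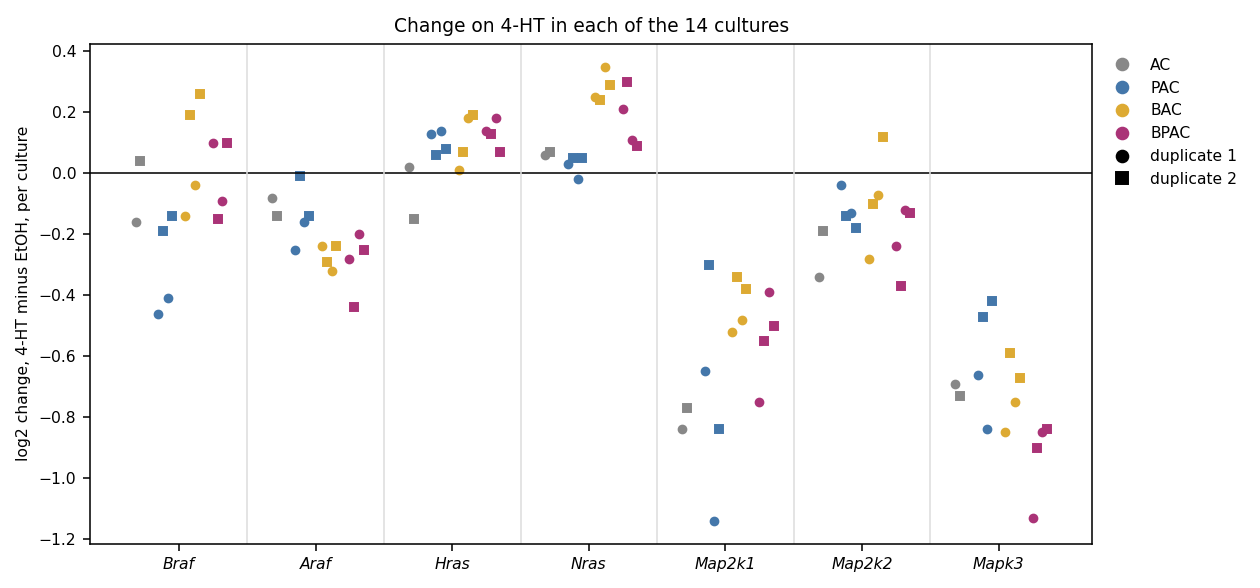
The y axis gives the log2 change from EtOH to 4-HT in each of the 14 cultures and the x axis the 7 members, with colours for genotypes, circles for duplicate 1 and squares for duplicate 2. *Mapk3* (-0.42 to -1.13), *Map2k1* (-0.30 to -1.14) and *Araf* (-0.01 to -0.44) lie below 0 in all cultures, and *Nras* lies higher in the 8 cultures with the *Braf* allele (0.09 to 0.35) than in the 6 without (-0.02 to 0.07), a separation that holds with TMM but not with library size alone (0.26 to 0.55 and 0.22 to 0.29).

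The next comparison asked whether the BraffloxV600E allele altered this response. From the mean change on 4-HT in the genotypes with the allele, that in the genotypes without it was subtracted. No member passed the threshold, where 6.61% of all genes did. Of the genes called under each scaling, 46.2% were higher with TMM, 34.6% with library size alone and 32.4% with upper-quartile factors. With the block, no member and 14% of all genes passed. At an unadjusted p below 0.05 there were 3 of 7, *Nras*, *Araf* and *Braf*, beside 28.5% of all genes, and the DESeq2 test called 1, *Nras*, beside 10.7%. The estimate for *Map2k1* was 0.29 (SE 0.14, 95% interval -0.01 to 0.59, adjusted p = 0.184), and it ran from 0.15 without PAC donor 2 to 0.43 without PAC donor 1. *Nras* differed by 0.18 (SE 0.06, interval 0.05 to 0.31, adjusted p = 0.0508), and all 8 cultures with the allele, with changes of 0.09 to 0.35, lay above all 6 without it, with -0.02 to 0.07. With library size alone these ranges overlapped, at 0.26 to 0.55 with the allele and 0.22 to 0.29 without. The share of all genes with such a separation was not counted. With DESeq2 its adjusted p was 0.00767. *Braf* itself differed by 0.21 (SE 0.10, interval 0.01 to 0.41, adjusted p = 0.151) and *Araf* by -0.16 (SE 0.07, interval -0.30 to -0.02, adjusted p = 0.127). *Mapk3* differed by -0.16 (SE 0.11, interval -0.39 to 0.06, adjusted p = 0.336), so its fall with 4-HT could not be told from that in organoids without the allele. *Hras* (0.10, interval -0.17 to 0.37) and *Map2k2* (0.05, interval -0.20 to 0.29) had intervals on both sides of 0. Within duplicates 1 and 2, the difference was 0.34 and 0.24 for *Map2k1*, 0.20 and 0.17 for *Nras*, 0.27 and 0.16 for *Braf*, -0.11 and -0.20 for *Araf* and -0.17 in both for *Mapk3*. Without both PAC duplicate 1 cultures it was 0.21, 0.17, 0.14, -0.19 and -0.25 in the same order of genes. None of these passed (adjusted p = 0.4, 0.13, 0.427, 0.111 and 0.139).

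Within organoids wild type for *Trp53* (BAC minus AC) and within those carrying the Trp53 allele (BPAC minus PAC), no member passed either, beside 0.215% and 3.57% of all genes (1.47% and 8.62% with the block, which called no member either). The lowest adjusted p values of a member were 0.338 and 0.14, with 1 and 2 members at an unadjusted p below 0.05, beside 12.7% and 23.3% of all genes. *Map2k1* differed by 0.38 (SE 0.22) in the first and 0.20 (SE 0.18) in the second, *Nras* by 0.22 (SE 0.10) and 0.15 (SE 0.08), and *Mapk3* by -0.01 (SE 0.17) and -0.32 (SE 0.14). Without both PAC duplicate 1 cultures, BPAC minus PAC was 0.04 for *Map2k1*, 0.13 for *Nras* and -0.48 for *Mapk3* (adjusted p = 0.0609). The Trp53LSL-R172H allele did not detectably alter the change of any member, with estimates from -0.16 (*Braf*, SE 0.10) to 0.09 (*Hras*, SE 0.13). In edgeR this contrast called 0.0148% of all genes, which is 2 genes, and no member had an unadjusted p below 0.05, beside 1.04% of all genes. No alternative called a member.

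The levels with and without the *Braf* allele were then compared at each treatment. With EtOH, before recombination, no member passed the threshold in edgeR or in any alternative, where 0.0296% of all genes did, which is 4 genes. *Braf* came closest and was lower with the allele by -0.23 (SE 0.07, interval -0.37 to -0.09, adjusted p = 0.116), at 20.2 to 25.4 CPM in 8 samples against 24.4 to 27.9 CPM in 6 samples. The difference was -0.23 within each duplicate and stayed between -0.19 and -0.26 in all alternatives. *Araf* was 0.12 higher (SE 0.05, interval 0.02 to 0.23, adjusted p = 0.2), and these were the 2 members with an unadjusted p below 0.05, beside 17.2% of all genes. With 4-HT, the difference in *Braf* was -0.02 (SE 0.07, interval -0.16 to 0.12). With 4-HT, 15.6% of all genes were higher and 14.6% lower with the allele, shares that moved with the scaling, since upper-quartile factors lowered the part of the calls that were higher from 51.5% to 36.2%.

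*Map2k1* was the 1 member that passed with 4-HT. It had 163 to 225 CPM in the 8 samples with the *Braf* allele and 115 to 149 CPM in the 6 samples without, which did not overlap, and the log2 difference was 0.48 (SE 0.10, interval 0.26 to 0.69, adjusted p = 0.000661). With EtOH the same difference was 0.19 (SE 0.10, interval -0.02 to 0.40, adjusted p = 0.352), at 0.05 and 0.32 within duplicates 1 and 2, and from 0.06 without PAC donor 1 to 0.31 without PAC donor 2. Since the test of the change given above did not pass, the data do not show that the 2 differences are unequal. Within duplicates 1 and 2, *Map2k1* was higher with the allele by 0.39 and 0.56 with 4-HT, although with 2 samples or fewer a group neither passed alone (adjusted p = 0.0209 and 0.0231). Without the AC duplicate 2 culture the difference was 0.44 and just missed the threshold (adjusted p = 0.0104), and it was 0.49 with the counts of each donor summed (adjusted p = 0.0114). The other members differed with 4-HT by between -0.06 (*Mapk3*, SE 0.08) and 0.10 (*Nras*, SE 0.04, adjusted p = 0.0688).

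**Figure D3:**
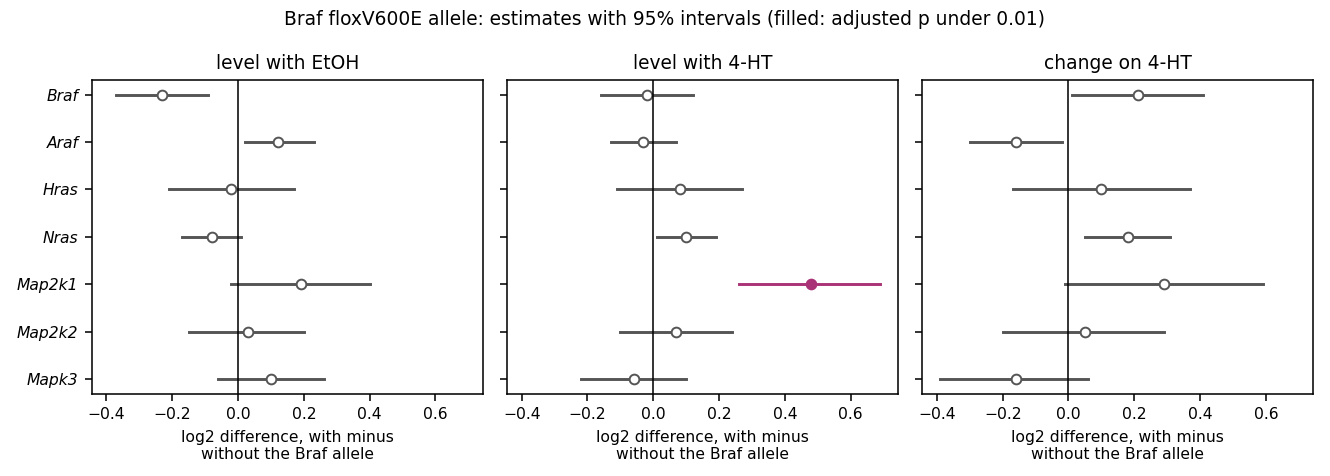
The x axis gives the log2 difference between organoids with and without the BraffloxV600E allele for each member (y axis), for the level with EtOH, the level with 4-HT and the change on 4-HT, with lines for 95% intervals and filled points for an adjusted p below 0.01. *Map2k1* with 4-HT (0.48) is the only filled point, and *Braf* lies lower with EtOH (-0.23) but not with 4-HT (-0.02).

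Ratios between relatives within a sample do not depend on how libraries are scaled, and were compared between 4 donors with and 3 donors without the *Braf* allele by two-sided exact permutation tests, with duplicates averaged. *Braf* and *Araf* encode RAF kinases that form dimers with each other. With EtOH, *Braf* had 0.168 to 0.214 reads per *Araf* read in the 8 samples with the allele and 0.219 to 0.258 in the 6 without, and the 2 sets did not overlap. With 4-HT it had 0.210 to 0.259 and 0.203 to 0.291 reads, and the sets overlapped. The log2 ratio differed by -0.35 with EtOH and by 0.06 with 4-HT, and its change from EtOH to 4-HT differed by 0.41, with a mean of 0.31 ± 0.07 (SD, n = 4 donors) with the allele and -0.09 ± 0.13 (n = 3 donors) without. The exact permutation p was 0.0286 with EtOH, 0.314 with 4-HT and 0.0286 for the change, where 0.0286 is the smallest that 35 splits can give. Adjusted over the 9 ratio tests the smallest values became 0.0857, so none passed 0.05. With a floor of 0.0286, a ratio could pass only if most of the 9 tests reached that floor. The adjusted values therefore cannot decide the question for a single ratio. The ratio differences within duplicates 1 and 2 were -0.34 and -0.36 with EtOH and 0.40 and 0.41 for the change. The EtOH samples enter both, so they are not 2 separate observations.

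*Map2k1* had 0.432 to 0.561 reads per *Map2k2* read in 4-HT-treated samples without the *Braf* allele and 0.513 to 0.895 in those with it. Per kilobase, the log2 ratio was -1.08 ± 0.09 (n = 3 donors) without the allele and -0.70 ± 0.13 (n = 4 donors) with it, a difference of 0.38 (exact permutation p = 0.0286, adjusted p = 0.0857). By duplicate, it was 0.31 and 0.44. With EtOH the difference was 0.13 (exact permutation p = 0.343), and it was -0.04 and 0.30 by duplicate and 0.06 to 0.27 with a donor left out. The change of this ratio differed by 0.25 (exact permutation p = 0.0857, adjusted p = 0.193), with 0.35 and 0.14 by duplicate and from 0.12 without PAC donor 2 to 0.35 without PAC donor 1. *Hras* had 1.16 to 1.77 reads per *Nras* read over all samples, and its log2 ratio differed between donors with and without the allele by 0.08 with EtOH and by -0.04 with 4-HT (exact permutation p = 0.343 and 0.314). Tests with 4-HT-treated samples do not rest on 7 fully separate donors, since the PAC libraries of duplicate 1 were not clearly separate.

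**Figure D4:**
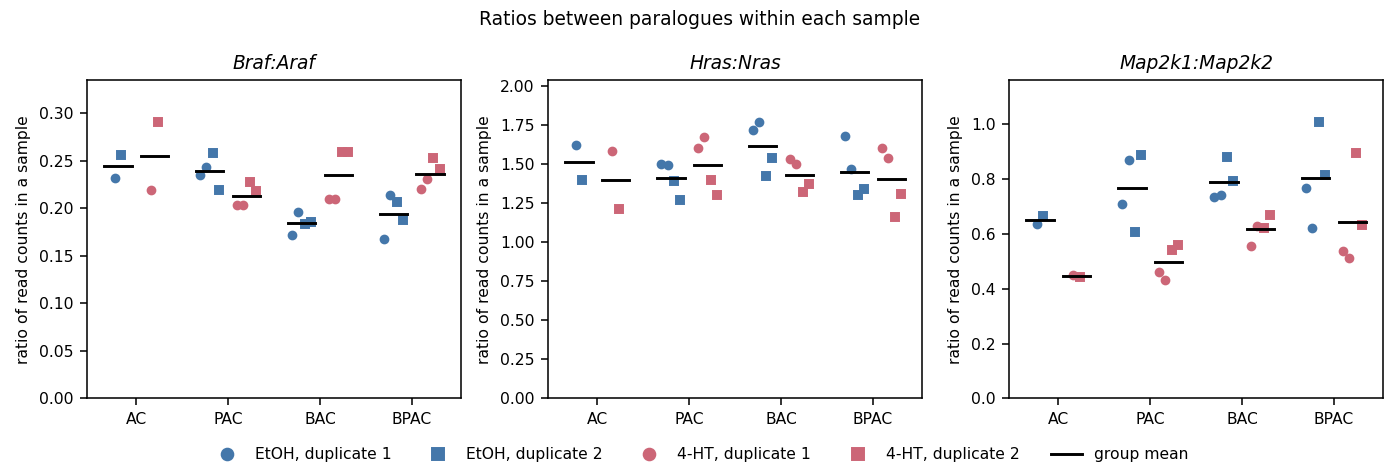
The y axis gives the ratio of read counts of *Braf* to *Araf*, *Hras* to *Nras* and *Map2k1* to *Map2k2* in each sample by genotype (x axis), blue for EtOH and red for 4-HT, with bars for group means. The *Braf* to *Araf* ratio of EtOH-treated BAC and BPAC samples (0.168 to 0.214) lies below that of AC and PAC samples (0.219 to 0.258).

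The duplicates also differed in some members. *Hras* and *Map2k2* were higher in duplicate 1 than in duplicate 2 of the same donor and treatment in all 14 pairs, by a median log2 difference of 0.25 (0.05 to 0.51) and 0.21 (0.04 to 0.37). Over all genes, 12.8% had the same direction in all 14 pairs. *Map2k1* was higher in duplicate 1 in 7 of 14 pairs, *Mapk3* in 8, *Nras* in 6, *Braf* in 5 and *Araf* in 11. Across the 28 samples, log2 CPM of *Mapk3* went along with that of *Araf* (r = 0.84) and *Map2k1* (r = 0.82) and against that of *Nras* (r = -0.76), and *Araf* and *Nras* went opposite ways (r = -0.79). *Hras* and *Map2k2* had r = 0.50, and *Braf* was not close to any other member, with r from -0.36 to 0.24. These values are descriptions over samples that share donors, cultures and the shift between treatments.

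Over all genes, those with a pattern most like *Mapk3* were *Cnksr1* and *Gucd1* (r = 0.98 each over 28 samples). For *Map2k1* they were *Cog6* and *Pgm1* (r = 0.96 each), and for *Map2k2* *Cyb5r3* (r = 0.91) and *Arl2bp* (r = 0.89). *Araf* was most like *Mif4gd* (r = 0.95) and *Tmem120a* (r = 0.93), *Hras* like *Elof1* (r = 0.92) and *Nedd8* (r = 0.89), and *Nras* like *Nmt2* (r = 0.89) and *Elk3* (r = 0.88). *Braf* had no close match, with *Gm3608* and *Kdm5b* at r = 0.61 each.

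The members were set beside 85 other genes of the pathway in 6 lists, of which 78 were measured. In BPAC organoids 15 of the 78 rose with 4-HT and 15 fell, beside the 22.0% and 23.0% of all genes given above, in BAC 12 and 12, in PAC 4 and 6 and in AC 0 and 2. Without both PAC duplicate 1 cultures, edgeR called 0 of the 78 in PAC (0.163% of all genes rose and 0.192% fell), with 12 at an unadjusted p below 0.05, beside 23.9% of all genes. For the effect of the *Braf* allele on the change, 1 was higher and 2 were lower (all genes, 3.05% and 3.55%). The higher one was *Rps6ka4* (MSK2, a nuclear kinase activated by ERK and p38), with a log2 difference of 0.74 (SE 0.13, adjusted p = 0.000633). With 4-HT it had 201 ± 18.3 CPM (SD, n = 4) in BAC and 185 ± 23.0 CPM (n = 4) in BPAC, against 105 ± 4.79 CPM (n = 2) in AC and 119 ± 8.53 CPM (n = 4) in PAC. *Gab1*, a docking protein that links receptors to RAS and PI3K, fell more with the allele (-1.09, SE 0.15, adjusted p = 4.58e-05), to 12.8 ± 0.595 CPM in BAC and 13.0 ± 1.30 CPM in BPAC (n = 4 each) against 27.9 ± 2.52 CPM in AC (n = 2) and 25.5 ± 1.39 CPM in PAC (n = 4). *Mapk13* (p38δ) fell more by -0.51 (SE 0.09, adjusted p = 0.000442). In each duplicate alone, 1 before 2, the differences were 0.78 and 0.71 for *Rps6ka4*, -1.0 and -1.19 for *Gab1* and -0.58 and -0.43 for *Mapk13*. With culture as a replicate block, 5 were higher and 4 lower (all genes, 6.51% and 7.48%), and with the DESeq2 test 4 and 2 (5.56% and 5.16%).

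By role, the medians of the lists in BPAC lay between -0.19 and 0.09. Of 10 other small GTPases 1 rose (*Rap1b*, 0.28, SE 0.08) and 3 fell, among them *Rit1* (-0.88, SE 0.17) and *Rras* (-0.77, SE 0.15), with a median log2 change of -0.09. Of 11 activators and adaptors of RAS 1 rose, the exchange factor gene *Rapgef1* (0.55, SE 0.14), and 2 fell, *Gab1* (-1.61, SE 0.14) and *Gab2* (-0.75, SE 0.16), with a median of -0.19. Of 9 GTPase-activating proteins and brakes 3 rose and 1 fell, with a median of 0.09. Among them *Rasa3* rose by 1.10 (SE 0.14) and *Rasal1* by 1.76 (SE 0.42), the latter at 2.97 CPM or less in every group mean, and *Dab2ip* fell by -0.45 (SE 0.10). Of 18 scaffolds and regulators 4 rose, such as the β-arrestin gene *Arrb2* (1.24, SE 0.18) and *Hsp90ab1* (0.65, SE 0.10), an HSP90 chaperone that RAF kinases depend on, and 6 fell, such as *Erbin* (-1.24, SE 0.25) and *Cnksr3* (-1.16, SE 0.14), with a median of 0.04.

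Further along the cascades, 4 of 22 other MAPK cascade kinases rose in BPAC, including *Mapk12* (0.96, SE 0.30) and *Map3k5* (0.45, SE 0.14), and 3 fell, including *Mapk13* (-0.88, SE 0.08) and *Map3k11* (-0.53, SE 0.12), with a median of 0.08. *Mapk12* was at 2.99 CPM or less in every group mean, and in PAC, without the *Braf* allele, it rose by 1.33 (SE 0.30). Of 8 kinases that ERK activates 2 rose, the RSK genes *Rps6ka6* (1.92, SE 0.27) and *Rps6ka2* (1.10, SE 0.27), and 0 fell, with a median of -0.12. The median over all genes was -0.04. With library size alone, 26 of the 78 rose and 11 fell in BPAC, beside 32.0% and 15.1% of all genes.

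**Figure D5:**
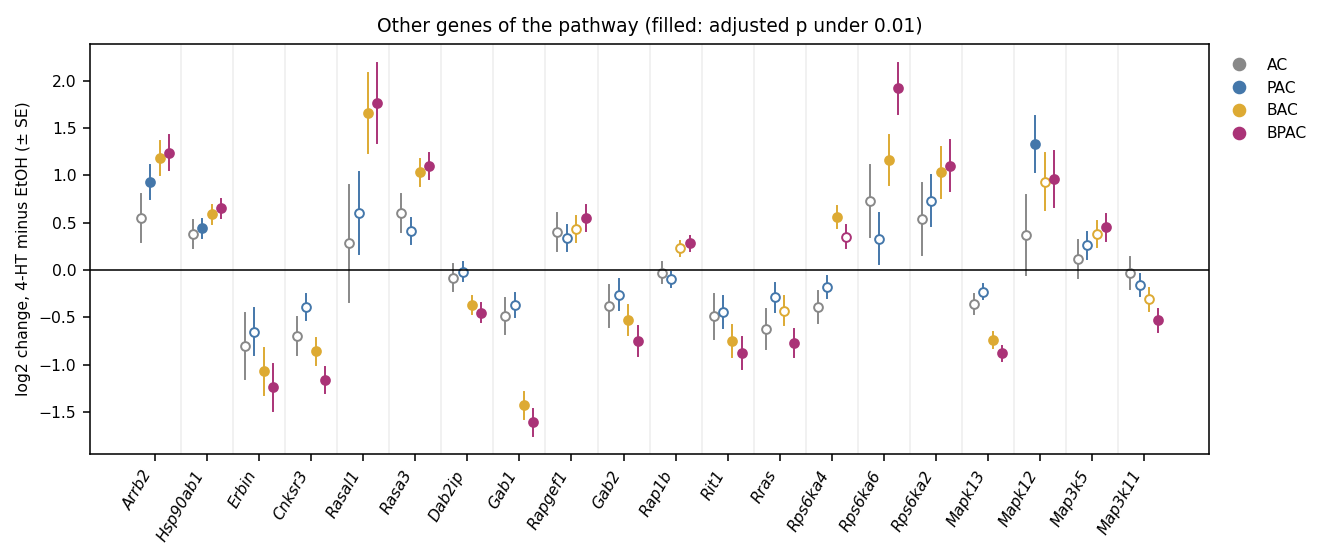
The y axis gives the log2 change from EtOH to 4-HT with its standard error for other genes of the pathway (x axis), in each genotype by colour, with filled points for an adjusted p below 0.01. *Gab1* shows a gap between BPAC (-1.61) and BAC (-1.43) on one side and AC (-0.49) and PAC (-0.37) on the other.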

How the data were processed

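RNA-seq of 28 colon organoid samples was analysed from the deposited counts, which are whole reads per gene with no normalization. Per the labels, the authors trimmed reads with Trimmomatic 0.39 and aligned them to GRCm38 with STAR 2.5.2b. The counting program, its annotation and strand setting are not given in the sources used here. The 4-HT dose is as in the labels. Counting errors cover the sampling of reads only, since reads carry no molecular identifiers.

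Counts were scaled with TMM and tested with the quasi-likelihood test of edgeR 4.0.16 (R 4.3.3) in 1 model with a mean for each of 8 groups, adjusting p by Benjamini-Hochberg over 13519 genes and a threshold of 0.01. The deposited table holds only genes above 1 CPM in 2 or more samples. Log2 CPM used a prior count of 2. Lengths and coordinates came from the GENCODE annotation of GRCm38, and 13479 genes had a symbol. EtOH-treated and 4-HT-treated samples of a culture share donor and duplicate number, and their deviations from the group means correlated (r = 0.245 to 0.532 in 12 cultures of PAC, BAC and BPAC). Scripts were tested on simulated data. Alternatives were limma-voom (limma 3.58.1), DESeq2 1.42.0, other scalings, filters and thresholds, culture as a block, duplicate as a covariate, donor sums, and samples, cultures or donors left out. For the ratios, single duplicates and left-out donors were chosen after seeing the data.

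The members and gene lists were chosen with earlier results of these data known. Named were every member, up to 2 other pathway genes per list and direction with the largest change past the threshold (for the *Braf* allele effect on the change and for BPAC), and the 2 genes most like each member. The remaining core isoforms named in this rule and 1 sequence are not reported here.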

Additional observations from a re-analysis of the deposited data

Results flagged for a closer look

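In groups of 4 samples, 2 of 81 sets of values held a sample far from the other 3, and chance flags about 5% of such groups. *Map2k1* in 4-HT-treated BPAC samples was 225 CPM in donor 1 duplicate 2 and 163 to 174 CPM in the others. *Braf* in the same group was 23.4 CPM in donor 2 duplicate 2 and 22.8 to 22.9 CPM in the others. For 3 other genes of the pathway the 4-HT change differed between organoids with and without the *Braf* allele in the edgeR test of the difference itself: *Gab1* by -1.09, *Mapk13* by -0.51 and *Rps6ka4* by 0.74 on the log2 scale.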

How the results depend on the processing

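Of the values for single members, 1603 kept direction and side of the threshold under an alternative, 70 kept the direction but lost the call, 8 gained it and 41 changed sign. *Mapk3* in BAC and BPAC kept its call under every alternative run. With culture (donor and duplicate number) as a replicate block, no member's call changed, with *Mapk3* and *Map2k1* called in all 4 genotypes and the difference in *Nras* between alleles at 0.18 (adjusted p = 0.0356). The cause of the changes below was not tested, except that settings on single duplicates, donor sums or the compared groups hold fewer samples.

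The members called numbered 2 (AC), 3 (PAC), 4 (BAC) and 3 (BPAC), beside 7.25%, 23.4%, 41.9% and 45.0% of all genes, and the percentages below are the shares of all genes called under the same setting. Library size alone gave 0 in AC (13.4%) and 2 in BAC (44.0%) and BPAC (47.1%). Duplicate 1 alone gave 2 in BAC (38.2%) and BPAC (43.4%). Duplicate 2 alone gave 0 in PAC (0.0518%) and 1 in BAC (21.0%) and BPAC (22.2%). Donor sums gave 2 in PAC (20.1%), 3 in BAC (39.5%) and 2 in BPAC (43.1%). In AC, single duplicates and donor sums leave 1 sample per treatment, so their counts are not given. The groups compared alone gave 0 in AC (1.87%), 2 in PAC (15.1%) and 1 in BPAC (33.4%). The fit without both PAC duplicate 1 cultures gave 0 in PAC (0.355%), and duplicate number as a covariate 5 in BPAC (53.2%). Leaving out a culture or donor gave 0 to 2 in AC (0 without either AC culture, with 0.0666% and 0.178%, and 1 without either BAC donor, with 5.07% and 4.85%), 1 to 3 in PAC (1 without donor 2, 2.49%), 1 to 4 in BAC (2 without donor 1, 20%, and 1 without donor 2, 22.8%) and 1 to 3 in BPAC (1 without donor 1, 30.2%). For the *Braf* allele, the DESeq2 test gave 1 member called on the change (10.7%) in place of 0 (6.61%). With 4-HT, 1 member was called (30.2%), and 0 were in duplicate 1 alone (25.6%), in duplicate 2 alone (8.47%), with donor sums (27.4%) and without the AC duplicate 2 culture (20.4%), with a range of 0 to 1 over all cultures or donors left out. The difference in the EtOH ratio of *Map2k1* to *Map2k2* turned to -0.04 in duplicate 1.

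Signs turned only for values that had not passed the threshold. With library size alone, the log2 changes became 0.17 (*Braf*), 0.11 (*Araf*) and 0.16 (*Hras*) in AC, 0.08 (*Araf*) and 0.11 (*Map2k2*) in PAC, 0.08 (*Map2k2*) in BAC, and 0.20 (*Braf*) and 0 (*Map2k2*, now just above it) in BPAC. In duplicate 1 alone they were 0 for *Hras* in AC and -0.07 for *Braf* in BAC, and in duplicate 2 alone 0.04 for *Braf* in AC and 0.01 for *Map2k2* in BAC. *Braf* in BPAC was 0.02 with the compared groups alone. Over cultures or donors left out, the changes ran from -0.17 to 0.04 (*Braf*) and -0.15 to 0.02 (*Hras*) in AC, from -0.19 to 0.02 for *Map2k2* in BAC and from -0.05 to 0.04 for *Braf* in BPAC. For the *Braf* allele with EtOH, the difference was 0.03 (*Hras*) and -0.01 (*Mapk3*) in duplicate 1, 0.02 (*Hras*) without both PAC duplicate 1 cultures, -0.01 (*Map2k2*) with upper-quartile factors and 0 (*Map2k2*) with donor sums, and left-out samples gave -0.05 to 0.03 (*Hras*) and -0.04 to 0.10 (*Map2k2*). For the allele with 4-HT, it was 0.04 (*Braf*) in duplicate 1, 0.06 (*Mapk3*) in duplicate 2, and 0 (*Hras*) and -0.01 (*Map2k2*) with upper-quartile factors, and -0.09 to 0.06 (*Braf*) with samples left out. On the change, *Map2k2* was -0.01 with upper-quartile factors and -0.01 to 0.10 with samples left out.

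With 1 AC donor and 2 cultures, AC calls rest on few samples. Where a left-out culture leaves 1 sample, it is assumed to vary like the other groups. Counting error in a single library came to at most 5.02% of a value, for *Braf*, and is larger for a change between a pair of libraries.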
